A study of Mus musculus with 8 samples.

Results

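The genes described here are 10 imprinted growth genes of the mouse: Igf2, H19, Cdkn1c, Dlk1, Meg3, Peg3, Plagl1, Grb10, Mest and Ndn. They were taken by symbol from the NCBIM37 annotation, and each matched 1 of the 36536 genes in the count files. All 10 had counts in every library and passed the filter on low counts in every comparison. Polyadenylated RNA was sequenced from cells of freshly dissected cochleas of Lfng-GFP BAC transgenic mice (B6;FVB-Tg(Lfng-EGFP)HM340Gsat/Mmucd). All 4 groups came from this strain, so the GFP- cells also carried the transgene: P1 GFP+, P1 GFP-, P6 GFP+ and P6 GFP-, with 2 libraries each, where P1 and P6 are postnatal days 1 and 6. The Lfng transgene marks Deiters' cells, outer pillar cells, border cells and inner phalangeal cells, and only the brightest cells were kept as GFP+, so cells with weak GFP were in neither fraction. At P1 the lateral wall and stria were separated off before sorting, whereas at P6 they were only partly removed. Age and dissection therefore cannot be told apart in the comparisons between ages.

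An imprinted gene is transcribed mainly from the allele inherited from 1 parent, under the control of DNA methylation set in the germ line. Many of these genes act on growth before and shortly after birth: paternally expressed ones such as Igf2 tend to promote it, and maternally expressed ones such as Cdkn1c and Grb10 tend to restrain it. Several of them are coexpressed in mesenchymal tissues of the embryo and are turned down in most organs after birth. Counts per gene carry no allele, so imprinting itself was not measured here.

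The 10 genes lie in 8 imprinted domains, and only Igf2 with H19 and Dlk1 with Meg3 share one. In NCBIM37, the build of the counts, Igf2 (ENSMUSG00000048583) spans bases 149836673 to 149852721 of chromosome 7 on the minus strand, and H19 (ENSMUSG00000000031) lies downstream of it at 149761434 to 149764048. Cdkn1c (ENSMUSG00000037664) follows on the same chromosome at 150644255 to 150646955. Dlk1 (ENSMUSG00000040856, 110691033 to 110701546) and Meg3 (ENSMUSG00000021268, 110779211 to 110809936) are neighbours on the plus strand of chromosome 12. Peg3 (ENSMUSG00000002265, 6656603 to 6683132) and Ndn (ENSMUSG00000033585, 69493163 to 69494814) are also on chromosome 7, Plagl1 (ENSMUSG00000019817) is on chromosome 10, Grb10 (ENSMUSG00000020176) on chromosome 11 and Mest (ENSMUSG00000051855) on chromosome 6. The library kit did not mark strand, so reads from exons that overlap an antisense gene could not be assigned by strand. This touched 1228 exon bases of Meg3, shared with Gm17639, 904 bases of Mest (23.0% of its exons), shared with Copg2, and 98 bases of Igf2, shared with Igf2as. On the same strand, exons of H19 and Meg3 also held 80 to 94 bases each of microRNA genes (Mir675, Mir770 and Mir1906-1).

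Promoter windows of 300 bases (250 before and 50 after each annotated start) from RefSeq on GRCm38.p6 were held for 8 of the 10 genes; H19 and Cdkn1c had none. The stretches below, each 120 bases read 5' to 3' on the gene's strand, are shown because they carry the letters that were searched for on both strands. These were GGGGCCCC, a core of the motif bound by the zinc finger protein Plagl1, the TATA box TATAAA, and GGGCGG, the GC box of Sp factors. Capitals mark a match or its reverse complement.
Peg3, chr7:6730530-6730649, minus strand: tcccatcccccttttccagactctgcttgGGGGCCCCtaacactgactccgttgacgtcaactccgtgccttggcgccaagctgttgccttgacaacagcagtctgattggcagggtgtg
Meg3, chr12:109540876-109540995, plus strand: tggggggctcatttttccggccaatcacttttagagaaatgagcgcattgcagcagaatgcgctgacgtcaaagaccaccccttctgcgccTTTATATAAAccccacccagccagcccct
Igf2, chr7:142657497-142657616, minus strand: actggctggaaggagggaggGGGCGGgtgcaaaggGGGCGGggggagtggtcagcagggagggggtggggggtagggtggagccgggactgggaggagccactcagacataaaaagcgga
Grb10, chr11:12037421-12037540, minus strand: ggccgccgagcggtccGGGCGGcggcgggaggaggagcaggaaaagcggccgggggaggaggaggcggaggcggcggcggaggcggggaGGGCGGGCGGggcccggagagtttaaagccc
Mest, chr6:30737930-30738049, plus strand: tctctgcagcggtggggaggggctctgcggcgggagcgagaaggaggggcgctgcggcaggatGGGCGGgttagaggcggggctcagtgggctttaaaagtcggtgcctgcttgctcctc

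GGGGCCCC was found in the window of Peg3 and in no other window of the 8 genes; of all 32851 windows in the table, 1.08% held it. TATAAA was found in the first Meg3 window alone, on both strands in an overlapping run, against 13.6% of all windows. GGGCGG occurred in a window of Igf2, Plagl1, Grb10, Mest and Ndn, and 35.7% of all windows held it. Igf2, Meg3, Grb10 and Mest had multiple windows each, so matches listed by gene cannot be set directly against a share of single windows. The first Grb10 window held 45 CG dinucleotides, more than 98.1% of all windows, whereas the Dlk1 window held 9 and the median of all windows was 7. These matches describe letters, not bound sites.

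The libraries held 17769024 to 67695039 counts on genes. Levels are given as counts per 1000000 gene counts of the library (CPM), and fold changes come from edgeR's quasi-likelihood test on the 4 libraries of a comparison, with Benjamini-Hochberg adjustment over all genes and a call at an adjusted p below 0.01. The 8 supporting cell markers, Lfng, Hes5 and Prox1 among them, summed to 6234 to 8793 CPM in the GFP+ libraries and 251 to 526 CPM in the GFP- libraries. GFP+ cells also held hair cell markers, whose sum was 688 to 790 CPM in P1 GFP+ and 395 to 455 in P1 GFP-. At P6 that sum was 404 to 489 CPM in GFP+ and 339 to 380 in GFP- cells. Schwann cell markers summed to 1104 to 2343 CPM in P6 GFP+ and 1365 to 1618 in P6 GFP-. P6 GFP+ replicate 2 stood apart from replicate 1. In it, 7 of 8 mesenchyme, 7 of 7 cartilage and bone and 4 of 4 stria and epithelium markers were higher. So were 4 of 5 Schwann cell and 5 of 7 hair cell markers. All 5 neuron, all 5 endothelial, all 5 macrophage, all 5 melanocyte and all 3 erythroid markers were higher too. By contrast, 7 of 8 supporting cell markers were lower in P6 GFP+ replicate 2. All 10 imprinted genes were also higher in it than in P6 GFP+ replicate 1, by 1.05-fold for Ndn to 3.18-fold for Meg3. Results that rest on this library are therefore also given without it.

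**Figure D1:**
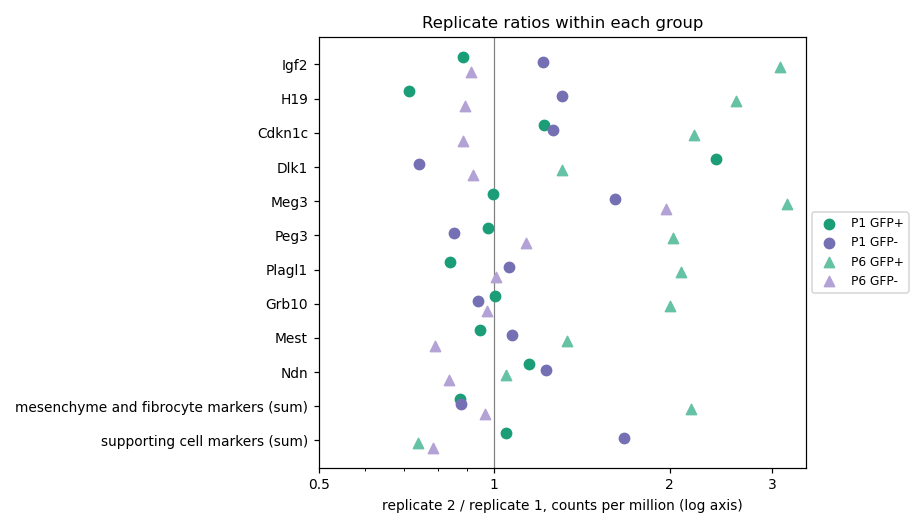
Ratio of replicate 2 to replicate 1 within each of the 4 groups (x axis, log scale, ratio of CPM) for the 10 genes and for 2 summed marker lists (y axis). The light green triangles of P6 GFP+ lie right of 1 for all 10 genes and for the mesenchyme markers (2.18), and left of 1 for the supporting cell markers (0.74).

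At both ages, all 10 genes were lower in GFP+ cells than in GFP- cells. At P1 the difference passed the test for 10 of 10 genes, and 5 of them differed by more than 4-fold: Igf2, H19, Dlk1, Peg3 and Meg3. Of all 18682 genes tested at P1, 20.7% were called lower in GFP+ cells, and 11.4% were called lower by more than 4-fold. At P6, 5 of 10 passed, namely Igf2, H19, Dlk1, Plagl1 and Ndn, and of these Ndn alone was under 4-fold. The background at P6 was 5.19% called lower in GFP+ cells, and 3.1% lower by more than 4-fold. The median log2 fold change of the 10 genes was -1.94 at P1 and -2.05 at P6, beside medians over all genes tested of 0.0075 and -0.017. Without P6 GFP+ replicate 2, all 10 were called lower at P6, beside 22.6% of all genes. The 2 libraries of one fraction did not overlap with those of the other for any of the 10 genes at either age, as for 44.9% of all genes in this direction at P1 and 37.6% at P6. In sorted populations, fewer cells of a type and less RNA per cell cannot be told apart.

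**Figure D2:**
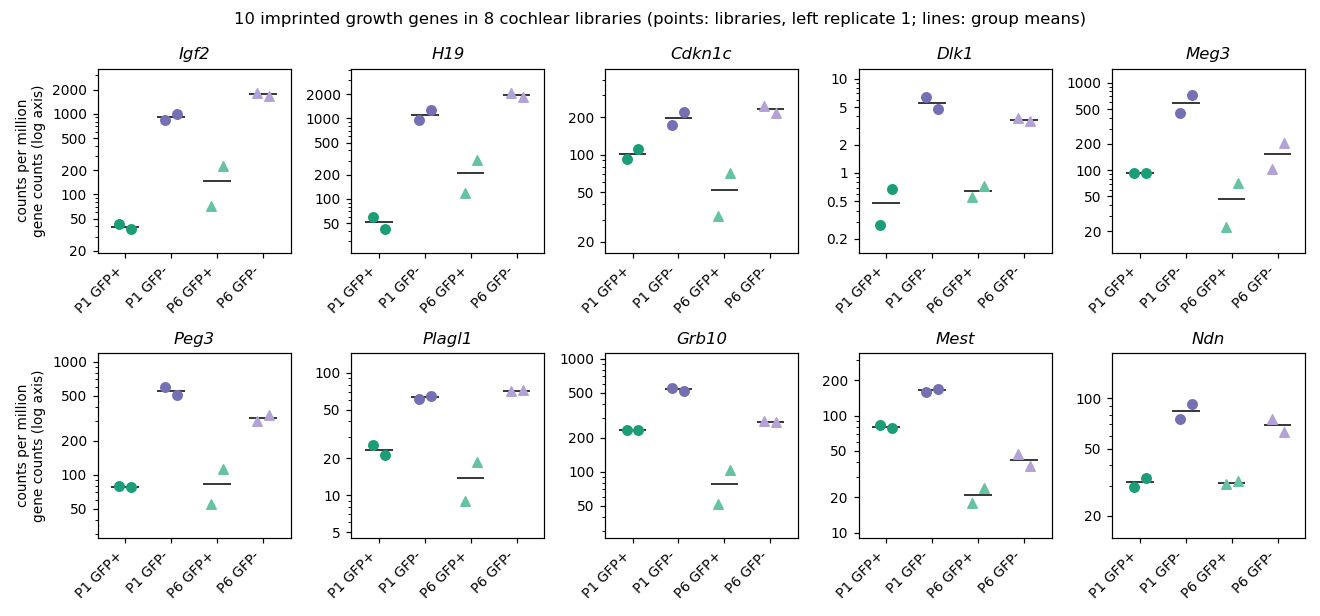
Levels in CPM (y axis, log scale, a separate range per panel) of each gene in the 8 libraries, by group (x axis); points are libraries, with replicate 1 on the left, and lines are group means. In every panel the GFP- libraries of an age lie above the GFP+ libraries of that age, from a 0.28 to 6.39 CPM range for Dlk1 to a 42.6 to 2083 CPM range for H19.

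Igf2 encodes a secreted insulin-like growth factor that signals through the Igf1 and insulin receptors, and H19 is a noncoding RNA that shares enhancers with it. Igf2 was at 42.4 and 37.4 CPM in the P1 GFP+ libraries, 827 and 1005 in P1 GFP-, 72.2 and 224 in P6 GFP+, and 1820 and 1665 in P6 GFP-. H19 was at 59.6 and 42.6 CPM in P1 GFP+, 968 and 1267 in P1 GFP-, 118 and 306 in P6 GFP+, and 2083 and 1858 in P6 GFP-. For both genes the 4 GFP- libraries were the highest, and within each fraction both P6 libraries were above both P1 libraries. In GFP+ cells Igf2 was lower by 21.3-fold at P1 (log2 -4.41, SE 0.16, adjusted p = 1.49e-05) and by 11.9-fold at P6 (log2 -3.57, SE 0.56, adjusted p = 0.00786). H19 was lower by 20.2-fold at P1 (log2 -4.34, SE 0.24, adjusted p = 5.29e-05) and by 9.39-fold at P6 (log2 -3.23, SE 0.49, adjusted p = 0.00714). Without P6 GFP+ replicate 2, the P6 values were log2 -4.57 for Igf2 and -4.05 for H19, and the P6 library left in the GFP+ group was then assumed to vary like the GFP- pair. Without P6 GFP+ replicate 1 they were -2.94 and -2.66. Without either P6 GFP- library none of the 5 calls at P6 was kept, and Igf2 then had an adjusted p of up to 0.0314, while scaling by library totals alone ended those of Igf2 (adjusted p = 0.0118) and H19 (adjusted p = 0.0106).

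Most mesenchyme and fibrocyte markers were lower in GFP+ cells, as Igf2 and H19 were. The 8 markers were present in every library, and their sum was 452 to 516 CPM in P1 GFP+, 13910 to 15829 in P1 GFP-, 1557 to 3390 in P6 GFP+ and 17800 to 18475 in P6 GFP-. At P1, 7 of the 8 were called lower in GFP+ cells, and at P6 3 of 8, or 7 of 8 without P6 GFP+ replicate 2. The exception was Lum, which was at 765 and 656 CPM in P6 GFP+ against 680 and 545 CPM in P6 GFP- (log2 0.21) and made up 765 of the 1557 CPM of P6 GFP+ replicate 1. Between ages in GFP- cells the list split: Lum was called higher at P6 (log2 1.49) and Postn lower (log2 -0.77), and the other 6 lay between -0.20 for Tbx18 and 0.90 for Col1a1 and were not called. Per 1000 CPM of this marker sum, Igf2 lay between 46.4 and 98.5 CPM in all 8 libraries, a 2.12-fold range, against a 48.6-fold range of its CPM. H19 likewise lay between 61.2 and 115 CPM per 1000, a 1.89-fold range. At P1, Igf2 (21.3-fold), H19 (20.2-fold) and this sum (30.7-fold) all differed strongly between fractions. Any divisor with a like difference would narrow the range, and no other list was used as one. The scale therefore cannot tell which cells held these RNAs. Of the other 8 genes, Cdkn1c, Meg3, Plagl1, Grb10, Mest and Ndn had a wider range on this scale than in CPM, 82.6-fold against 9.44-fold for Mest. Cartilage and bone markers, whose sum was 5668 to 7115 CPM in P1 GFP+, 18498 to 18663 in P1 GFP-, 6090 to 10040 in P6 GFP+ and 41179 to 44823 in P6 GFP-, also moved with the fractions; of these 7, the bone marker Bglap2 was at 0 in 3 of the 4 P1 libraries. Sums of several other marker lists were also lower in GFP+ cells at both ages, but not all were. Hair cell markers went the other way, with ratios of GFP- to GFP+ means of 0.575 at P1 and 0.805 at P6. For Schwann cell markers (1.95 and 0.866) and stria and epithelium markers (3.1 and 0.493) the ratio of means was above 1 at P1 only. Both P6 ratios rested on P6 GFP+ replicate 2. The Schwann cell sum was 1104 CPM in P6 GFP+ replicate 1 and 2343 in replicate 2, beside 1365 and 1618 in P6 GFP-. The stria and epithelium sum was 101 CPM in P6 GFP+ replicate 1 and 471 in replicate 2, beside 166 and 116 in P6 GFP-. Neuron markers had ratios of 4.46 and 1.39. The ratio of GFP- to GFP+ means was 70.8 at P1 and 9.13 at P6 for melanocyte markers, 27.8 and 7.82 for erythroid, 14.0 and 2.30 for endothelial and 8.61 and 5.95 for macrophage markers, beside 30.7 and 7.33 for mesenchyme and fibrocyte markers. Of the melanocyte markers, Mlana was at 0 in both P1 GFP+ libraries and Tyrp1 in 1 of them. The part of any of these cells in the levels of Igf2 and H19 was not tested.

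The ratio of H19 to Igf2 counts ranged from 1.12 to 1.63 over the 8 libraries. Of 10910 other genes with a mean of at least 10 CPM, H19 had the pattern most like that of Igf2, and Igf2 the pattern most like that of H19. Likeness was measured as the root mean square (RMS) difference of log2(CPM + 1), after subtracting each gene's own mean over the 8 libraries, and was 0.18 for this pair. Next to Igf2 came S1pr3 (0.18) and Cntnap4 (0.20), and next to H19 came Mfap4 (0.21) and Mrc1 (0.22). The 8 libraries fall into 2 sorted fractions, so such distances describe these libraries and were not tested. Igf2 and H19 together made up 11.0% to 13.8% of the summed CPM of the 10 genes in P1 GFP+ cells, 46.4% to 49.6% in P1 GFP-, 46.3% to 55.0% in P6 GFP+ and 74.5% to 77.7% in P6 GFP-. The antisense gene Igf2as was lower in GFP+ cells at both ages, at 0.72 and 0.92 CPM against 6.81 and 8.37 CPM at P1 (log2 -3.12, SE 0.26, edgeR adjusted p = 0.000217). Igf2as lies opposite the far more abundant Igf2, and the libraries did not mark strand. The part of Igf2 RNA in the Igf2as counts was not tested. Ins2, which lies beside Igf2, was at 0 in 7 of the 8 libraries.

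**Figure D3:**
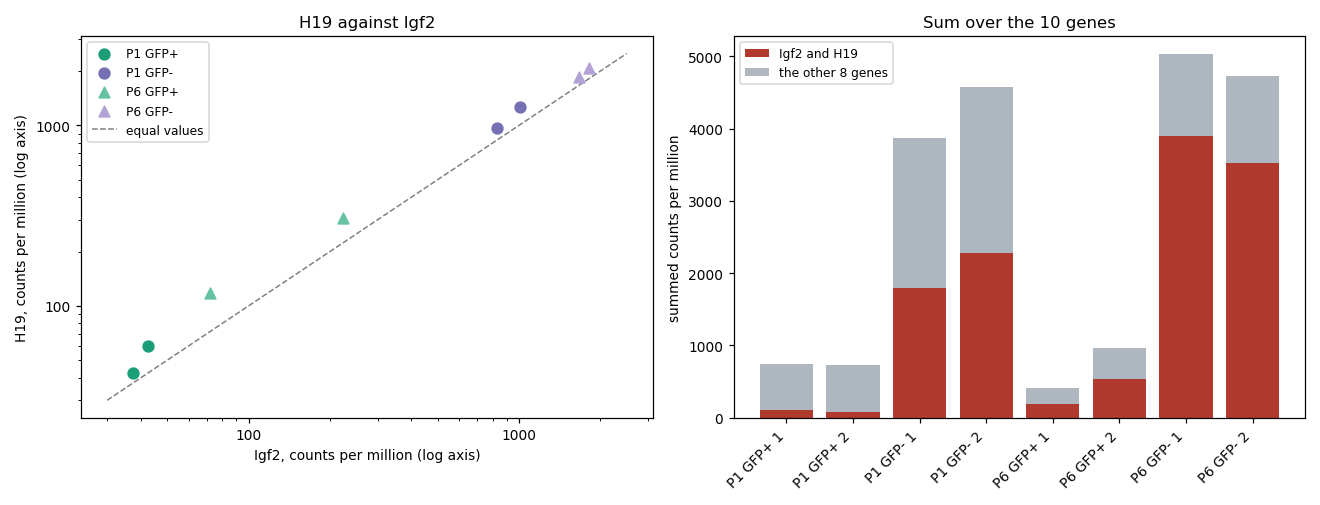
Left: H19 against Igf2 in the 8 libraries, CPM on log axes, with a dashed line of equal values. All points lie above the line, at ratios from 1.12 to 1.63. Right: summed CPM of the 10 genes in each library (bars from 0), split into Igf2 with H19 and the other 8; the sum runs from 410 in P6 GFP+ replicate 1 to 5026 in P6 GFP- replicate 1.

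Dlk1 and Meg3 share a domain on chromosome 12 but were at very different levels. Dlk1, a membrane protein of the Notch ligand type that holds back adipocyte and other differentiation, was the lowest of the 10 genes, with 10 to 22 counts in each GFP+ library and 236 to 299 counts in each GFP- library. This gave 0.28 and 0.68 CPM in P1 GFP+, 6.39 and 4.74 in P1 GFP-, 0.56 and 0.74 in P6 GFP+, and 3.83 and 3.52 in P6 GFP-. Dlk1 was lower in GFP+ cells by 11.4-fold at P1 (log2 -3.52, SE 0.43, adjusted p = 0.00103) and 5.58-fold at P6 (log2 -2.48, SE 0.35, adjusted p = 0.00587; log2 -2.68 without P6 GFP+ replicate 2). The size of the P1 difference depended on the library kept, with log2 -2.94 without P1 GFP+ replicate 1 and -4.14 without P1 GFP+ replicate 2, and it was called in both. Meg3, a noncoding RNA of the maternal allele, was at 93.5 and 93.1 CPM in P1 GFP+, 452 and 729 in P1 GFP-, 22.5 and 71.5 in P6 GFP+, and 102 and 202 in P6 GFP-. Its GFP- libraries differed more than those of the other 9 genes, with replicate 2 above replicate 1 by 1.61-fold in P1 GFP- and 1.97-fold in P6 GFP-. Meg3 was lower in P1 GFP+ cells by 5.88-fold (log2 -2.56, SE 0.23, adjusted p = 0.000296), and at P6 the difference was not called (log2 -1.70, SE 0.58, adjusted p = 0.0707). The neuron marker sum also differed within P1 GFP- cells, 221 CPM in replicate 1 and 468 in replicate 2, but was 155 and 131 CPM in P6 GFP-; its part in the Meg3 values was not tested. Without P6 GFP+ replicate 2, the P6 difference of Meg3 was log2 -2.73 with an adjusted p of 2.4e-06, and without P6 GFP+ replicate 1 it was -1.06 with an adjusted p of 0.00617. Of their neighbours, Begain was called lower in GFP+ cells at P1 (log2 -1.77) and P6 (log2 -2.09), Rtl1 was called lower at P1 (log2 -2.76), and Dio3 had counts in the P6 GFP- libraries only, at 0.032 and 0.044 CPM.

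Cdkn1c and Grb10 are restraints on growth: Cdkn1c inhibits cyclin-dependent kinases and marks cells leaving the cell cycle, and Grb10 is an adaptor that binds and damps the insulin and Igf1 receptors. Cdkn1c was at 91.8 and 112 CPM in P1 GFP+, 173 and 219 in P1 GFP-, 32.6 and 71.7 in P6 GFP+, and 245 and 217 in P6 GFP-. Its difference was the smallest of the 10 genes at P1 (1.80-fold lower in GFP+ cells, log2 -0.84, SE 0.14, adjusted p = 0.00376), and at P6 it was larger but just missed the call (4.46-fold, log2 -2.16, SE 0.37, adjusted p = 0.0104). Leaving out P6 GFP+ replicate 2 gave log2 -2.81 and a call, whereas the P1 call was lost without either P1 GFP+ library (adjusted p up to 0.0352). Grb10 was at 235 and 235 CPM in P1 GFP+, 555 and 521 in P1 GFP-, 52.1 and 104 in P6 GFP+, and 281 and 273 in P6 GFP-. It was lower in GFP+ cells by 2.13-fold at P1 (log2 -1.09, SE 0.10, adjusted p = 0.000276), while at P6 the difference was not called (3.58-fold, log2 -1.84, SE 0.33, adjusted p = 0.0116). It was called without P6 GFP+ replicate 2 (log2 -2.39). Near Grb10, the actin nucleator gene Cobl differed the other way at P1, at 229 and 210 CPM in GFP+ against 82.7 and 74.6 CPM in GFP- cells (log2 1.59, SE 0.11, edgeR adjusted p = 0.000105). In the domain of Cdkn1c, Slc22a18 was called higher in P1 GFP+ cells (log2 0.96) and Osbpl5 lower (log2 -0.80), while Phlda2 was at most 0.36 CPM in any library and was not tested.

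Plagl1 and Peg3 encode zinc finger proteins. Plagl1, a transcription factor that binds GC-rich sites and restrains the cell cycle, was at 25.5 and 21.4 CPM in P1 GFP+, 61.1 and 64.7 in P1 GFP-, 8.95 and 18.7 in P6 GFP+, and 71.3 and 71.8 in P6 GFP-. It was lower in GFP+ cells by 2.49-fold at P1 (log2 -1.31, SE 0.13, adjusted p = 0.00039) and by 5.18-fold at P6 (log2 -2.37, SE 0.34, adjusted p = 0.00632; log2 -2.98 without P6 GFP+ replicate 2). Its pattern was close to that of Cdkn1c, which stood at rank 20 of the 10910 genes by likeness to Plagl1 (RMS difference 0.24). Peg3, a paternally expressed gene that acts on fetal growth and maternal behaviour, was at 79.1 and 77.1 CPM in P1 GFP+, 591 and 504 in P1 GFP-, 54.9 and 111 in P6 GFP+, and 297 and 337 in P6 GFP-. It was 6.52-fold lower in P1 GFP+ cells (log2 -2.71, SE 0.12, adjusted p = 2.76e-05), and at P6 the difference was not called (3.84-fold, log2 -1.94, SE 0.34, adjusted p = 0.0109), though it was without P6 GFP+ replicate 2 (log2 -2.51). In the Peg3 domain, Zim1 was at 0.50 and 0.80 CPM in P1 GFP+ and 19.7 and 18.0 CPM in P1 GFP- cells (log2 -4.80, SE 0.25, edgeR adjusted p = 4.09e-05), and Usp29 was also called lower at P1 (log2 -2.98).

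Mest, which encodes an enzyme of the alpha/beta hydrolase fold, and Ndn, a MAGE family protein of postmitotic neurons, had the smallest differences at P6. Mest was at 82.6 and 78.0 CPM in P1 GFP+, 158 and 170 in P1 GFP-, 18.0 and 24.0 in P6 GFP+, and 47.0 and 37.2 in P6 GFP-. It was 1.90-fold lower in P1 GFP+ cells (log2 -0.93, SE 0.093, adjusted p = 0.000466), and its P6 difference of similar size was not called (log2 -1.01, SE 0.22, adjusted p = 0.0188; log2 -1.21 and called without P6 GFP+ replicate 2). Ndn was at 29.4 and 33.7 CPM in P1 GFP+, 75.6 and 92.7 in P1 GFP-, 30.7 and 32.1 in P6 GFP+, and 75.2 and 62.9 in P6 GFP-. It was lower in GFP+ cells by 2.49-fold at P1 (log2 -1.31, SE 0.12, adjusted p = 0.000366) and 2.21-fold at P6 (log2 -1.15, SE 0.17, adjusted p = 0.00647), and P6 GFP+ replicate 2 differed from replicate 1 by 1.05-fold. Of the neighbours of Ndn, Magel2 was called lower at P1 (log2 -2.72), whereas Snrpn was called higher in GFP+ cells at P6 (log2 2.42, SE 0.26, edgeR adjusted p = 0.00283), at 112 and 73.0 against 18.2 and 16.5 CPM.

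**Figure D4:**
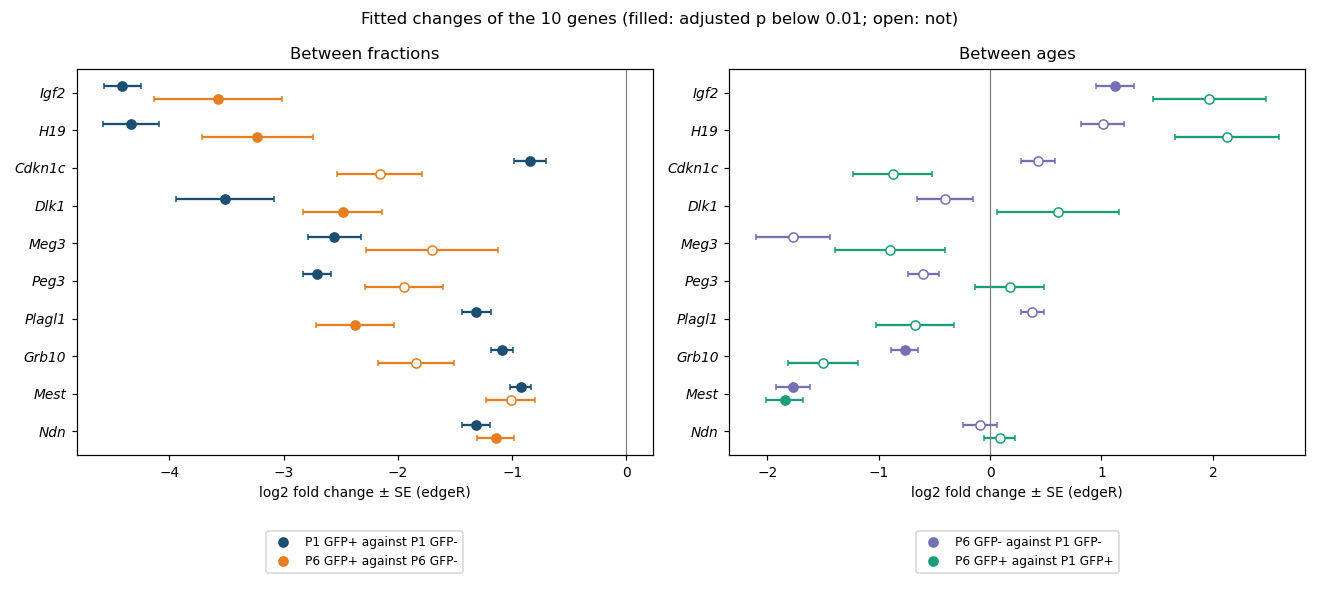
Fitted log2 fold changes of the 10 genes with their standard errors (x axis) between fractions at each age (left) and between ages in each fraction (right). Filled points passed an adjusted p of 0.01. All 20 points on the left lie below 0, from -0.84 for Cdkn1c at P1 to -4.41 for Igf2 at P1, whereas those on the right fall on both sides of 0.

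To ask whether the fraction difference itself changed with age, the P6 log2 ratio was set against the P1 log2 ratio in a fit of all 8 libraries. None of the 10 genes was called by edgeR, and 1.93% of 19233 genes were. At an unadjusted p below 0.05 there were 2, Cdkn1c (difference of log2 ratios -1.33, SE 0.44, adjusted p = 0.123) and Plagl1 (-1.07, SE 0.38, adjusted p = 0.151), beside 21.2% of all genes, and the DESeq2 test also called 0. Without P6 GFP+ replicate 2, the difference was -1.98 for Cdkn1c, -1.68 for Plagl1, -1.32 for Grb10, -0.18 for Igf2 and 0.18 for Peg3. Without P6 GFP+ replicate 1 it was 1.39 for Igf2 and 1.14 for Peg3. Sizes and calls thus depended on which of these libraries was kept, and more of all genes were called in both of these fits.

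Between P1 and P6, the 10 genes split. Among GFP- cells, Igf2 rose 2.17-fold (log2 1.12, SE 0.17, adjusted p = 0.00626), while Mest fell 3.41-fold (log2 -1.77, SE 0.15, adjusted p = 0.000853) and Grb10 fell 1.70-fold (log2 -0.77, SE 0.12, adjusted p = 0.00693). Of all genes tested, 5.04% were called higher at P6 in GFP- cells and 2.34% lower. The libraries of the 2 ages did not overlap for 3 genes that were higher at P6 (Igf2, H19 and Plagl1) and 6 that were lower, beside 20.5% and 48.9% of all genes. H19 (log2 1.01, SE 0.19, adjusted p = 0.0133), Meg3 (log2 -1.77, SE 0.34, adjusted p = 0.0134) and Peg3 (log2 -0.60, SE 0.14, adjusted p = 0.026) were not called. The remaining 4 lay between log2 -0.40 for Dlk1 and 0.43 for Cdkn1c, with adjusted p from 0.0441 for Plagl1 to 0.702 for Ndn. Scaling by library totals alone, which lowered the median of all genes by about 0.2 on the log2 scale in this comparison, ended the call of Igf2 (log2 0.93), and fitting all 8 libraries together ended those of Igf2 and Grb10. Mest was called under every alternative tried in GFP- cells. Without P6 GFP- replicate 1, and likewise without replicate 2, the calls of Igf2 and Grb10 were not kept. With either P1 GFP- library left out, more of the 10 genes and more of all genes were called.

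In GFP+ cells, Mest alone passed the edgeR test, falling 3.59-fold from P1 to P6 (log2 -1.84, SE 0.17, adjusted p = 0.00412). The background was 2.86% of genes called higher and 1.95% lower. Grb10 (log2 -1.50, SE 0.31, adjusted p = 0.031), H19 (log2 2.13, SE 0.47, adjusted p = 0.0347) and Igf2 (log2 1.97, SE 0.51, adjusted p = 0.0515) came next, and their P1 and P6 libraries did not overlap. Replicates of the 2 ages did not overlap for 7 of the 10 genes, 2 higher and 5 lower at P6, beside 29.3% and 41.1% of all genes. Leaving out P6 GFP+ replicate 2 gave log2 0.97 for Igf2, 1.31 for H19, 0.46 for Dlk1 and 0.088 for Ndn. The values below 0 were those of Cdkn1c (-1.51), Meg3 (-1.93), Plagl1 (-1.27), Grb10 (-2.05), Mest (-2.03) and Peg3 (-0.38). Leaving out P6 GFP+ replicate 1 instead gave log2 0.57 for Peg3, so its direction between ages depended on 1 library. The call of Mest was not kept without P1 GFP+ replicate 2. How many of the 10 genes and of all genes were called moved with the library left out. The mesenchyme marker sum was 5.11-fold higher in P6 than in P1 GFP+ cells and the supporting cell marker sum 0.85-fold as high. Sums of melanocyte (11.7-fold), erythroid (5.52), endothelial (5.29), Schwann cell (4.44) and macrophage (3.29) markers were higher too, and the part of any of these cells in the changes of Igf2 and H19 was not tested. The hair cell marker sum was 0.60-fold as high at P6, and the part of any cell type in the change of Mest was not tested either.

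Over the 8 libraries, Igf2 and H19 stood apart from the other 7 genes ranked for likeness, with RMS differences of at least 1.18. Cdkn1c and Plagl1 (0.24), Grb10 and Mest (0.48) and Cdkn1c and Grb10 (0.50) were close. RMS differences also grow with the size of a change, so genes of like direction but smaller folds are set apart. By Pearson r with Igf2, Ndn (0.89), Peg3 (0.89) and Plagl1 (0.85) were the highest of these 7 and Mest (0.19) the lowest. Dlk1, with a mean below 10 CPM, was not ranked. The genes closest to Mest were Crabp2 (0.21), which binds retinoic acid, Nnat (0.30), itself imprinted, and Gfra2 (0.32). Efnb3, Gjc1 and Cacng7 were closest to Grb10, Zfp354c, Gfpt2 and Cttnbp2 to Plagl1, Chsy1, Pcdhgc5 and Tspan4 to Cdkn1c, and Prdm16, Rgs9 and Podn to Meg3.

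**Figure D5:**
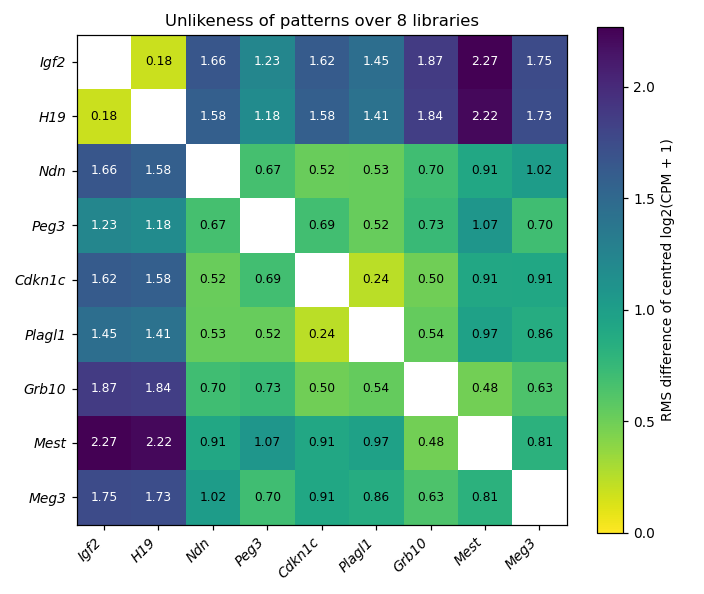
Root mean square difference between the patterns of 9 of the genes (rows and columns) over 8 libraries, on log2(CPM + 1) after centring each gene; lower values (yellow) are more alike. The pair of Igf2 and H19 (0.18) and the pair of Cdkn1c and Plagl1 (0.24) are the closest, and Igf2 and Mest (2.27) the farthest apart.

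Per kilobase of exon, which allows genes to be compared, the order differed between fractions. In P1 GFP+ cells Cdkn1c led with 52.7 CPM per kb (SD 7.28, n = 2), followed by Grb10 (25.6, SD 0.041) and H19 (21.5, SD 5.08). Mest (20.4) and Ndn (19.1) came next, and H19, Mest and Ndn were neighbours whose libraries overlapped. Igf2 (7.27), Peg3 (5.87), Meg3 (5.16), Plagl1 (3.21) and Dlk1 (0.085) followed without overlap. In P1 GFP- cells H19 (471, SD 89.1) and Igf2 (167, SD 22.9) led, ahead of Cdkn1c (101), Grb10 (58.7), Ndn (50.9), Mest (41.7), Peg3 (41.1), Meg3 (32.6), Plagl1 (8.63) and Dlk1 (0.98). There Peg3 overlapped with both Mest and Meg3. In P6 GFP- cells the order began with H19 (831, SD 67.0), Igf2 (317, SD 20.1) and Cdkn1c (120, SD 10.5), and Mest had dropped to 10.7, where it overlapped with Plagl1 (9.82). Ndn (41.8), Grb10 (30.2) and Peg3 (23.8) stood between, and Meg3 (8.43) and Dlk1 (0.65) closed the order, with Plagl1 and Meg3 overlapping. In P6 GFP+ cells H19 led with 89.4 (SD 56.2), and Cdkn1c (27.0), Igf2 (26.9) and Ndn (19) overlapped. Grb10 (8.52), Peg3 (6.24) and Mest (5.33) overlapped likewise, as did Meg3 (2.60) and Plagl1 (1.90), and Dlk1 (0.11) was again the lowest.

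Other imprinted genes were called in both directions. Of 63 listed from known mouse imprinted domains, 55 were found in the files. At P1, 51 were tested, of which 16 were called lower and 5 higher in GFP+ cells, with a median log2 fold change of -0.21. Of all genes at P1, 16.6% were called higher, beside the 20.7% called lower. At P6, 5 of 49 were called lower and 2 higher, where 5.19% of all genes were called lower and 7.72% higher. Leaving out P6 GFP+ replicate 2 gave 17 lower and 5 higher of 52, beside 22.6% and 17.9% of all genes. The 3 with the largest falls outside the members' domains, counting those above 1 CPM, were Kcnk9 (log2 -4.18), Gatm (-3.69) and Dcn (-3.37) at P1, and Gatm (-2.05), Dcn (-1.82) and Sgce (-1.79) were the 3 called lower at P6. Those called higher were Slc22a3 (log2 5.05), Airn (1.76) and Zdbf2 (0.82) at P1 and Slc22a2 (3.80) at P6. Of 26 genes tested in the members' domains at P1, 8 were called lower in GFP+ cells, 2 higher and 16 not (median log2 -0.20). Phactr2, in the Plagl1 domain, was among those called lower (log2 -0.66). Of 24 such genes tested at P6, 2 were called lower, 1 higher and 21 not (median log2 -0.17). Between ages, Nnat fell in both fractions, from 89.0 and 86.3 to 21.4 and 22.9 CPM in GFP- cells (log2 -1.79, SE 0.11, edgeR adjusted p = 0.000243) and from 66.7 and 68.3 to 9.79 and 16.9 CPM in GFP+ cells (log2 -2.24, SE 0.26, edgeR adjusted p = 0.00741). Dcn rose from 55.7 and 48.3 to 255 and 267 CPM in GFP+ cells (log2 2.42), and Slc22a3 fell there (log2 -1.33). H13 rose in both fractions, by log2 0.63 in GFP- and 0.99 in GFP+ cells, and Slc38a4 rose in GFP- cells (log2 1.36). In the members' domains, Tnfrsf23 rose with age in both fractions (log2 1.67 and 2.57) and Copg2, which overlaps Mest, fell in GFP- cells (log2 -0.77). Reads of Copg2 and Mest could not be told apart by strand where they overlap, and the part of Mest RNA in the Copg2 counts was not tested. The difference between fractions changed with age for Dcn (difference of log2 ratios 1.53, SE 0.24, edgeR adjusted p = 0.00979) and for Cobl (-2.14). Each of the calls named here or among the members' neighbours that involves P6 GFP+ cells was kept, in the same direction, without P6 GFP+ replicate 2, with log2 values of 2.72 for Snrpn and 3.99 for Slc22a2 at P6, and 2.41 for Dcn, -2.66 for Nnat and 2.41 for Tnfrsf23 between ages.

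The receptors that bind Igf2 were present in every library. Igf1r was at 397 and 391 CPM in P1 GFP+ and 312 and 255 in P1 GFP- (log2 0.58, SE 0.13, edgeR adjusted p = 0.0107), and at 130 and 210 in P6 GFP+ and 222 and 218 in P6 GFP-. Insr was called higher in P1 GFP+ cells (156 and 151 against 115 and 119 CPM, log2 0.50, SE 0.086, edgeR adjusted p = 0.0042). Igf2r, which takes up Igf2 for breakdown, was at 184 and 172 CPM in P1 GFP+ and 190 and 204 in P1 GFP- (log2 -0.043, SE 0.096, edgeR adjusted p = 0.737), and at 79.4 and 129 in P6 GFP+ and 207 and 200 in P6 GFP- (log2 -0.98, SE 0.25, edgeR adjusted p = 0.0315), where it was called lower without P6 GFP+ replicate 2 (log2 -1.34). Of 15 tested genes of the Igf axis (ligands, receptors, binding proteins, Igf2 mRNA-binding proteins and receptor substrates), 6 were called higher and 5 lower in GFP+ cells at P1, and 4 and 1 at P6, beside 16.6% and 20.7% of all genes at P1 and 7.72% and 5.19% at P6. Leaving out P6 GFP+ replicate 2 gave 4 higher and 7 lower at P6, beside 17.9% and 22.6% of all genes.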

How the data were processed

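RNA of sorted cells was made into TruSeq v2 libraries, which do not mark strand, and sequenced in paired ends. The deposited values are raw counts of reads per Ensembl gene: per the labels, the authors aligned reads to mm9 (NCBIM37) with TopHat 1.4.0 and counted them with HTSeq, whose mode and version are not given in the sources used here. Lines for reads on no gene, on several genes or not uniquely placed were left out of totals; 64.7% to 76.2% of the listed reads were on genes. Library totals bound the precision of low genes such as Dlk1. The labels do not say that replicates came from separate animals, so p-values measure the spread between these libraries, which may be technical.

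Genes kept by filterByExpr (minimum count 10, minimum total 15) were scaled by TMM and tested with edgeR 4.0.16 (quasi-likelihood, R 4.3.3) on the 4 libraries of each comparison, or on all 8 for age by fraction. A gene was called at an adjusted p below 0.01, and a second count needed a fold above 4. SE was the log2 fold change divided by the square root of F. Alternatives were DESeq2 1.42.0, its size factors, library totals, no filter, all 8 libraries, a replicate block and each library left out. The crossed block and the gene lists without P6 GFP+ replicate 2 were added after seeing the data. The script was tested on simulated data. Figures used matplotlib 3.10.9.

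The 10 genes and the lists were chosen with earlier results of these data known. All 10 genes were named. Other imprinted genes in a member's domain were named if called, along with Ins2, Dio3 and Phlda2, which had few or no counts. Those tested there but not called were not named. Of the rest, at most 3 per direction and comparison were named, by fold among those called with at least 1 CPM. Of the Igf axis the receptors were named, and for each ranked member the 3 genes most like it, which for Peg3 and Ndn are not reported here.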

Additional observations from a re-analysis of the deposited data

How the results depend on the processing

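Of 540 values of single genes under alternatives, 427 kept their direction and side of the threshold, 79 gained a call, 24 lost it and 10 reversed. Percentages in brackets are the shares of all genes tested that were called in the same fit. At P1 between fractions, 10 genes were called (37.3%). With every library kept, only the fit of all 8 libraries together changed this, to 9 (31.5%). It lost Cdkn1c (edgeR adjusted p = 0.0515), which was also lost without either P1 GFP+ library. At P6 between fractions, 5 calls (12.9%) became 8 (15.5%) with DESeq2 size factors and 3 (9.82%) with library totals. They became 10 (26.7%) with the DESeq2 test and 10 (20%) without the filter. With all 8 libraries there were 9 (26.8%), and with the replicate block 9 (15.5%). With 1 library left out, these calls and those over all genes both moved with the library removed. None of the 5 calls was kept without either P6 GFP- library, where the spread came from the P6 GFP+ pair alone. Those of the 10 genes that were called in these fits were all lower in GFP+ cells. For GFP- cells between ages, 3 calls (7.38%) became 6 (16.1%) with the DESeq2 test, 7 (14.8%) without the filter and 1 (4%) with all 8 libraries. For GFP+ cells, 1 call (4.81%) became 4 (17.6%) with the DESeq2 test and 6 (15.6%) without the filter. It became 3 (12.3%) with all 8 libraries and 2 (6.27%) with the replicate block. For age by fraction, 0 calls (1.93%) became 4 (8.45%) without the filter. In these 3 comparisons, too, the calls moved with the library left out, as did those over all genes.

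The replicate numbers are shared across groups but nothing ties them to an animal or day, and the replicate differences correlated at 0.023 (P1 fractions), 0.089 (P6 fractions), -0.258 (GFP- ages) and -0.085 (GFP+ ages). The replicate block gave 10, 9, 3, 2 and 0 calls in the 5 comparisons, beside 34.1%, 15.5%, 5.5%, 6.27% and 0.785% of all genes. The 3 in GFP- cells between ages were Igf2, Mest and Meg3 (edgeR adjusted p = 0.000478), while Grb10 was not called (edgeR adjusted p = 0.0104). A crossed replicate block, added after seeing the data, gave 6 calls for GFP- cells between ages, beside 16.2% of all genes.

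Reversed values were all small or rested on 1 library. With library totals, Ndn between ages in GFP+ cells was log2 -0.0073 and the age by fraction difference of Mest was 0.032. With 1 library left out, Ndn between ages in GFP- cells ranged from -0.25 to 0.068, Peg3 between ages in GFP+ cells from -0.38 to 0.57, and the age by fraction differences from -0.18 to 1.39 for Igf2, -0.18 to 1.42 for Meg3, -0.30 to 0.11 for Mest and -0.0068 to 0.33 for Ndn. The causes were not tested. Library totals moved the median of all genes by -0.21 for GFP- cells between ages and by 0.16 for age by fraction, and the share of calls that were higher at P6 in GFP- cells from 68.3% to 49.5%. In the P6 fractions that share of calls higher in GFP+ cells went from 59.8% to 71.4% with library totals, 47.5% with the DESeq2 test, 41.7% without the filter and 44.6% with all 8 libraries, and total calls from 2363 to between 1796 and 5309. Dlk1, with 10 to 22 counts per GFP+ library, was limited by depth.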
